A study of Mus musculus with 4 samples.

Results

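Transcripts typical of the intestinal lining, 38 genes of absorptive enterocytes and mucus-secreting goblet cells, were followed on 4 arrays of RAW 264.7 cells, a mouse macrophage line from BALB/c mice. The genes had been listed by name, and all of them were found among the 20967 named genes of the array, through 43 of its 39429 probes. The list was drawn up after some of these genes had been seen in the same arrays to lie below the reference or to differ between times, so the values below describe the genes and are not independent evidence of a pattern. The cells were untreated or had been kept with the bacterium Lactobacillus bulgaricus, a yoghurt probiotic, for 1, 4 or 6 h at 10 bacteria per cell (the multiplicity of infection). RNA of 3 cultures per condition was pooled before labelling, so each condition had 1 array, no spread between cultures can be given and no difference was tested. Each array carried the sample labelled with Cy5 beside a common reference labelled with Cy3, described by the submitters as a mixture of the RNA of all groups, and no array had the dyes swapped. The 4 arrays lay on 1 slide in the order of the times, so position on the slide and time with bacteria cannot be told apart. RAW 264.7 is 1 established line, the medium held serum and no antibiotic, and RNA of whole cultures was measured, in which fewer cells of a type and less RNA per cell cannot be told apart.

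Enterocytes take up nutrients through a brush border of microvilli, which carries digestive enzymes such as lactase and sucrase-isomaltase, and they pass absorbed fat on with fatty acid binding proteins and apolipoproteins. Goblet cells secrete the gel-forming mucin Muc2 together with trefoil peptides, lectins and mucus-binding proteins. The caudal homeobox factors Cdx1 and Cdx2 set the intestinal programme and bind promoters of several brush border genes. Macrophages are not known for these programmes, with some exceptions such as Anpep, the aminopeptidase also called CD13 on myeloid cells, and widely used genes such as Atp1b1.

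For 3 genes the results turn on, the promoters are shown because they hold, or lack, letters of the caudal and HNF1 sites: Sis lay far below the reference on every array, Lct was highest in untreated cells, and Aqp8 was highest at 1 and 6 h. The sequences run 5' to 3' from 250 bases before to 50 after the gene's start, from RefSeq on GRCm38.p6. Capitals mark the caudal core TTTAT (or its reverse complement ATAAA) and the HNF1 half-site GTTAAT (or ATTAAC), both searched on both strands; neighbouring matches can touch or overlap.
Sis, chr3:72967814-72968113 (minus strand): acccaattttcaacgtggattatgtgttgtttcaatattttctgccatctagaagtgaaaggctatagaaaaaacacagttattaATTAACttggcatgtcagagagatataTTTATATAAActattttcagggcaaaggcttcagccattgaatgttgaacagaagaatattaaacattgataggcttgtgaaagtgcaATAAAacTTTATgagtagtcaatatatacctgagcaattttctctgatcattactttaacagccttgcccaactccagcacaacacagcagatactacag
Lct, chr1:128328269-128328568 (minus strand): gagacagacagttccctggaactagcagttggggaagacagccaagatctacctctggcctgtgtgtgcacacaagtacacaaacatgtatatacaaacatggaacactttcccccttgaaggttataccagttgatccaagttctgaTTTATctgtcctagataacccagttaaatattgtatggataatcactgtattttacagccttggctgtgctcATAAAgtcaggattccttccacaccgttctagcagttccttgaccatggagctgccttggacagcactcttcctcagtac
Aqp8, chr7:123462044-123462343 (plus strand): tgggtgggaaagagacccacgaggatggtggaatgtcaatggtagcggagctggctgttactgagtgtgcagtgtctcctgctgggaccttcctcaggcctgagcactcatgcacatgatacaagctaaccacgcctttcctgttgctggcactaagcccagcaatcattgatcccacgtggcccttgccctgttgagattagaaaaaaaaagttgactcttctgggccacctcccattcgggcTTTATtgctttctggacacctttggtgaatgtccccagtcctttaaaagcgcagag
The Sis promoter held 4 caudal cores and 1 HNF1 half-site, the Lct promoter 2 caudal cores and the Aqp8 promoter 1. The ATAAA of Lct began at position -30 from the start, where TATA boxes usually lie. TTTAT or its complement was found in 63.3% of the 30 members' promoters in the table and in 40.9% of all 27025 promoters, and the HNF1 half-site in 10% of the members' and 7.2% of all. These matches are letters only; no binding was measured.

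Detection was similar on the 4 arrays, with 49.5% to 51.8% of 43020 spots well above background in Cy5 and 43.5% to 45.4% in Cy3. With outlier spots left out, all 38 members were well above background in Cy5 in untreated and 1 h cells, 37 at 4 h and 35 at 6 h. A gene counted as measured in a comparison when a probe, not marked as an outlier spot, stood well above background in Cy5 and in Cy3 on each array of the pair, and 35 members were measured on all 4 arrays. The exceptions were Fabp1, whose Cy5 signal was not well above background at 4 and 6 h, Cdh17, likewise at 6 h, and Zg16, an outlier spot at 6 h. The Cy5 signal of that Zg16 spot, 3023, was itself well above background. Macrophage genes fixed as a check were detected in Cy5 for 15, 13, 14 and 14 of 17 genes on the array in untreated, 1 h, 4 h and 6 h cells. In this and later detection counts, a gene with only outlier spots on an array counted as not detected. The spread between the 10 spots of replicated probes, the only error these arrays give, was 0.13 (SD of the log2 difference from the untreated array, pooled over 227 probes at 1 h, and the same at 4 and 6 h). This spread is technical and holds no variation between cultures.

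The most constant feature was a lower signal in the samples than in the reference. The log2 ratio of Cy5 over Cy3 was below 0 on all 4 arrays for 23 of 35 measured members, 65.7%, against 18.6% of 10105 measured genes. It was -1 or lower, at least 2-fold below the reference, on all 4 arrays for Fabp2, Sis, Enpep, Vil1, Krt20 and Atp1b1. These 6 members stood among 7 such genes in all, 0.0693% of the genes measured. In an equal mixture of the 4 samples, the 4 linear ratios of a gene average 100%, apart from dye bias and normalization. The members' averages had a median of 63.8%, with a range of 24.6% to 217%, against 101% for all measured genes and 127% for 13 macrophage genes. An average under 50% was found for 9 of 35 members and for 21 genes of all measured, 0.208%. Some members had been listed because they lay below the reference on these arrays, so nothing is read from these shares. Dye bias, the make-up of the reference and the source of these transcripts were not tested.

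**Figure D1:**
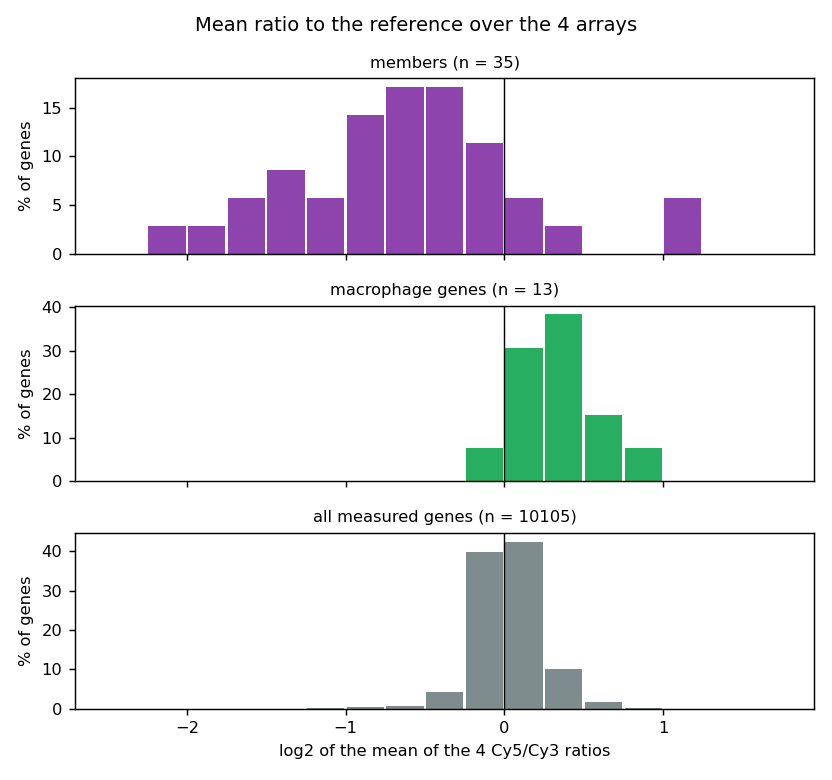
Histograms of the log2 of the mean of the 4 Cy5 over Cy3 ratios (x axis, 0 is equality with the reference) as a percentage of genes (y axis) for 35 members, 13 macrophage genes and 10105 measured genes. The members reach down to 24.6% of the reference, while the macrophage genes lie between 90.6% and 178%.

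The members' median range over the 4 arrays was 0.62 log2 units in Cy5 and 0.40 in Cy3, against 0.36 and 0.26 for all measured genes. The range was wider in Cy5 for 26 of 35 members, 74.3%, close to the 67.6% of all measured genes, and for 4 of 9 brush border genes. In normalized Cy3 values alone (offset 50), 0 members differed by 2-fold or more between an array with bacteria and the untreated array. Of all genes 1.16%, 1.37% and 2.56% did at 1, 4 and 6 h. With 38, 37 and 35 members measured, a count of 0 is not set apart from these shares. The processed Cy3 signal of Epcam, without that offset, spanned 2.98-fold over the 4 arrays. The log2 ratio was lowest on the untreated array for 21 of 35 members, 60%, against 29.8% of all measured genes. Nothing is read from this share, as differences between times were known when the list was made. The members' median log2 ratio was -1.06, -0.53, -0.72 and -0.54 in untreated, 1 h, 4 h and 6 h cells, against 0.01, 0.06, 0.01 and -0.01 for all measured genes.

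**Figure D2:**
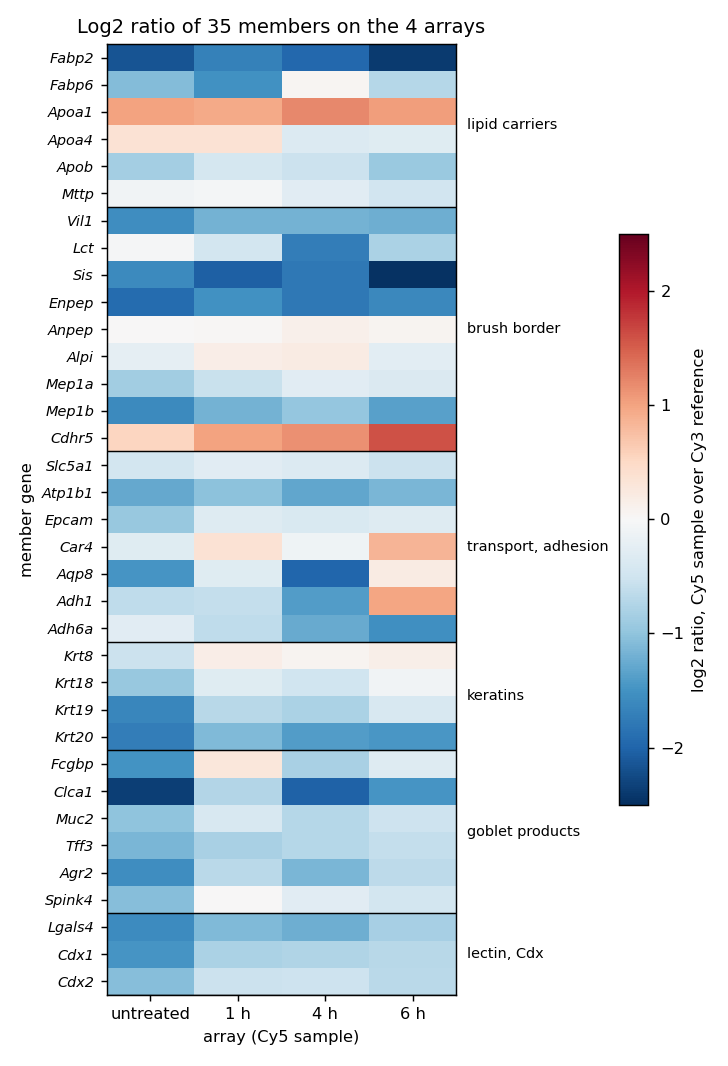
Log2 ratio of Cy5 sample over Cy3 reference (colour, blue below and red above the reference) for the 35 members measured on all 4 arrays (rows, by role) in untreated, 1 h, 4 h and 6 h cells (columns). Fabp2 is dark blue throughout (-1.69 to -2.39), Apoa1 and Cdhr5 are red throughout, and the keratins and goblet products are bluest in untreated cells.

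Differences from untreated cells are given as the log2 ratio on the array with bacteria minus that on the untreated array, and a member was counted as higher or lower when this reached 1 in size, a 2-fold difference. At 1 h, 4 of 38 measured members were higher (Fcgbp, Clca1, Aqp8 and Spink4) and 0 lower, against 0.328% and 0.0482% of 10366 genes. At 4 h, 1 of 37 was higher (Fabp6), against 0.242% of 10335 genes, and 1 lower (Lct), against 0.213%. At 6 h, 6 of 35 were higher (Aqp8, Adh1, Krt19, Fcgbp, Car4 and Cdhr5), against 0.456% of 10307 genes, and 1 lower (Adh6a), against 0.466%. The list had been made with such differences known, so nothing is read from these shares. The median difference of the members was 0.42, 0.33 and 0.39 at 1, 4 and 6 h, against 0.06, 0.00 and -0.01 for all measured genes. In Cy5 alone the members' medians were 0.23, 0.18 and 0.06, and in Cy3 alone -0.23, -0.06 and -0.22, so the ratio's medians came with a lower reference signal in the arrays with bacteria. In Cy5 alone, 3 members were higher and 0 lower at 1 h (0.376% and 0.675% of all genes), 2 higher and 1 lower at 4 h (0.474% and 1.14%), and 6 higher and 1 lower at 6 h (1.54% and 2.11%). These were not all the same members: Spink4 at 1 h (0.79) and Krt19 at 6 h (0.88) fell under the rule. Cdx1 passed it at 4 h (1.01) and 6 h (1.18). Counts moved with the processing: between scanner-processed signals and the values used here, the members higher at 4 h numbered 7 against 1. Scaling between arrays took 3 named members inside the 2-fold rule at 6 h, Cdhr5 (0.54), Car4 (0.98) and Adh6a (-0.80).

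**Figure D3:**
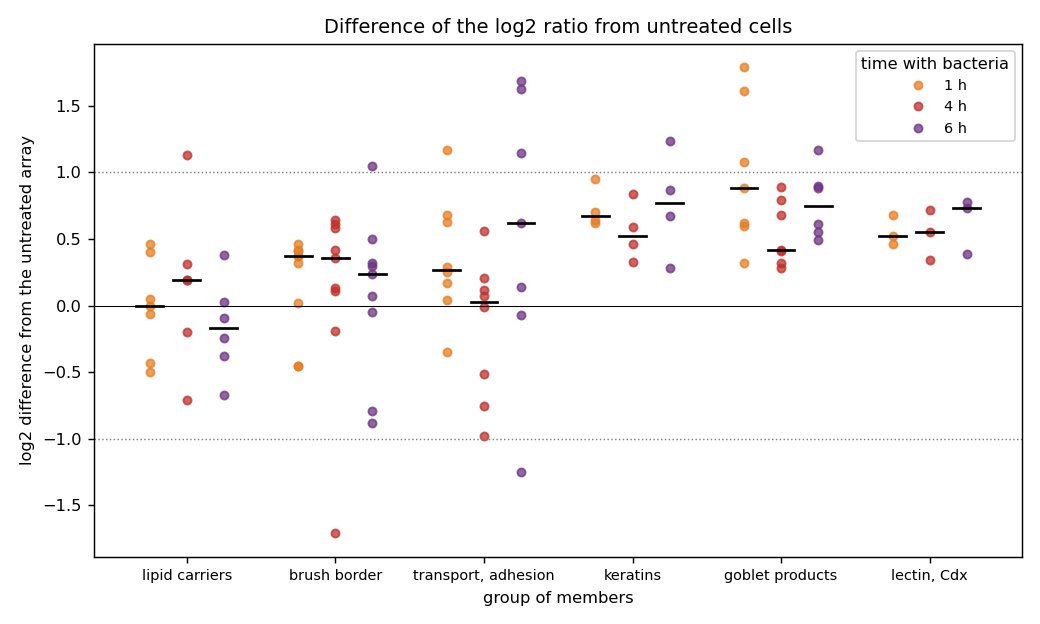
Difference of the log2 ratio from the untreated array (y axis) for each measured member (points), by role (x axis) and time with bacteria (colour); bars are medians and dotted lines mark 2-fold. All keratin and goblet points lie above 0, while Lct at 4 h (-1.71) and Adh6a at 6 h (-1.25) lie below the lower dotted line.

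Among the lipid carriers, the fatty acid binding proteins each followed a course of their own. Fabp2, the intestinal fatty acid binding protein, had scanner-processed Cy5 signals of 921, 1153, 988 and 698 in untreated, 1 h, 4 h and 6 h cells, against Cy3 signals of 4637, 4549, 4312 and 4294 in the reference on the same arrays. Its processed sample signal thus lay between 16.3% and 25.3% of the reference. After background correction and loess its mean ratio was 24.6%, the lowest of all 10105 measured genes in those values. That rank does not hold for processed signals, in which Enpep lay lower, at 7.06% to 16.6% of the reference. Fabp1, the liver-type protein shared by enterocytes and hepatocytes, had Cy5 signals of 235, 89.9, 6.04 and 11.5 and Cy3 signals of 175, 182, 102 and 113 in the same order. It was above the reference in untreated cells and near background at 4 and 6 h; in Cy5 it was at least 2.49-fold lower at 4 h and at least 2.15-fold lower at 6 h than in untreated cells. Its dim value, itself not well above background, was taken as the limit, being above the lowest signal of any probe that was. Fabp6, which binds bile acids in the ileum, had Cy5 signals of 2397, 2335, 5732 and 3547 and Cy3 signals of 5072, 7051, 5405 and 5592. It was highest at 4 h, with a log2 difference of 1.13 from untreated cells, and 0.38 at 6 h. At 1 h its difference was -0.43 after loess and 0.57 with each array centred on its median, a setting that raised the median of all genes at 1 h by 0.86.

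The apolipoproteins did not share one course. Apoa1, the main protein of high-density lipoprotein, was 2-fold or nearly so above the reference on every array, with log2 ratios of 1.01, 0.95, 1.20 and 1.04 in untreated, 1 h, 4 h and 6 h cells. Its probe was printed 10 times, and over 9 usable spots its difference from untreated cells was -0.07 ± 0.18, 0.18 ± 0.10 and 0.02 ± 0.13 at 1, 4 and 6 h (SD over spots, a technical spread). Apoa4, an apolipoprotein of chylomicrons, had Cy5 signals of 216, 230, 85.2 and 72.1 and Cy3 signals of 109, 131, 124 and 98.8. It was above the reference in untreated and 1 h cells and below it at 4 and 6 h, with differences of -0.71 and -0.67. For Apob, the core protein of chylomicrons, the probes disagreed: one had log2 ratios of 0.35, 0.33, 0.56 and 0.17 and the other -2.03, -1.21, -1.63 and -2.03. As the mean of both probes Apob counts among the 23 members below the reference on all 4 arrays. By the lower probe alone it would count too, and by the higher probe alone it would not. Mttp, the transfer protein that loads lipid onto Apob, was dim and had differences of 0.05, -0.20 and -0.38. Over the 6 or 7 measured lipid carriers the median difference was 0.00, 0.19 and -0.16.

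Of 9 brush border genes, 6 lay below the reference on all 4 arrays, and 3 of them, Sis, Enpep and Vil1, at least 2-fold below. Sis, which splits sucrose, had Cy5 signals of 476, 331, 533 and 206 against Cy3 signals of 2011, 2609, 2409 and 2094 in untreated, 1 h, 4 h and 6 h cells. The sample reached 9.82% of the reference at 6 h and 23.7% in untreated cells. Enpep, an aminopeptidase that removes acidic residues, had Cy5 signals of 43.9, 80.6, 91.9 and 54.9 against Cy3 signals of 622, 670, 555 and 397. Vil1, the actin-bundling villin of microvilli, had Cy5 signals of 370, 326, 412 and 259 against Cy3 signals of 1435, 1208, 1113 and 850. For both genes the sample signal reached at most 16.6% (Enpep) and 37% (Vil1) of the reference, both at 4 h. Mep1b, a subunit of the metalloprotease meprin, had log2 ratios of -1.60, -1.18, -0.96 and -1.36, and its partner Mep1a -0.86, -0.55, -0.29 and -0.37. In both meprin genes the untreated array was lowest.

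Lct, the lactase that splits milk sugar, took another course. Its Cy5 signals were 387, 191, 47.8 and 142 in untreated, 1 h, 4 h and 6 h cells, against Cy3 signals of 418, 434, 448 and 365. The sample was at 92.7% of the reference in untreated cells and at 10.7% at 4 h, and the difference of the log2 ratio was -1.71 at 4 h and -0.79 at 6 h. Its Cy5 signals spanned 8.1-fold over the arrays and its Cy3 signals 1.23-fold. Cdhr5, a protocadherin that links microvillus tips, lay above the reference on every array and furthest at 6 h, with Cy5 signals of 689, 1322, 1627 and 2486 and Cy3 signals of 454, 587, 655 and 755. Its differences from untreated cells were 0.46, 0.61 and 1.05, and its mean ratio of 217% was the highest of the members. Anpep had Cy5 signals of 3789, 3273, 2812 and 2168, almost equal to its Cy3 signals of 3871, 3344, 2689 and 2143. Both its channels were lower at the later times, so its differences in the ratio were 0.02, 0.11 and 0.07, while in Cy5 alone they were -0.31, -0.46 and -0.91. Alpi, intestinal alkaline phosphatase, had log2 ratios between -0.27 and 0.20.

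In the group of transport, adhesion and alcohol metabolism, Aqp8, Adh1 and 1 probe of Car4 had the widest courses, with high samples at 6 h. Aqp8, a water channel of colon epithelium, had Cy5 signals of 28, 241, 21.8 and 411 in untreated, 1 h, 4 h and 6 h cells, against Cy3 signals of 352, 397, 371 and 354. The 1 h and 6 h samples stood far above the untreated and 4 h samples, while the reference spanned 1.13-fold. The differences of its log2 ratio were 1.17, -0.51 and 1.69, that at 4 h turning to 0.21 when the arrays were scaled to the same spread. Its second, dimmer probe was not measured in pairs, but in Cy5 was at least 1.32-fold higher at 1 h and at least 1.55-fold higher at 6 h, its untreated value, not well above background, being the limit. Car4, a membrane-bound carbonic anhydrase, had a probe with Cy5 signals of 37, 436, 113 and 727 and Cy3 signals of 116, 178, 168 and 143. That probe too was high at 1 and 6 h, whereas the other probe of Car4 had log2 ratios of -0.06, 0.10, 0.05 and 0.17, nearly flat. The gene's difference at 6 h was 1.15 over both probes and 0.23 for the flat, brighter probe alone, under the 2-fold rule.

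The alcohol dehydrogenases differed from untreated cells in opposite directions at 6 h. Adh1, which oxidizes ethanol and retinol, had Cy5 signals of 112, 181, 53.9 and 766 in untreated, 1 h, 4 h and 6 h cells and Cy3 signals of 273, 414, 321 and 296. It was highest at 6 h, with differences of 0.04, -0.75 and 1.63. Adh6a, another member of the family, had Cy5 signals of 166, 66.8, 47.3 and 21.5 and Cy3 signals of 232, 238, 275 and 252. Its untreated sample was the highest and its 6 h sample the lowest, with differences of -0.35, -0.98 and -1.25. Atp1b1, the beta subunit of the sodium pump, was below the reference on all 4 arrays, with Cy5 signals of 203, 421, 392 and 367 against Cy3 signals of 730, 1140, 1080 and 933. Both its channels were lowest on the untreated array, and its ratio differed by 0.25, -0.01 and 0.14. Epcam, the adhesion molecule of epithelia, had differences of 0.63, 0.56 and 0.62 in the ratio but 0.11, 0.06 and -0.18 in Cy5 alone, beside Cy3 signals of 321 with untreated cells and 228, 153 and 108 with the later samples. Slc5a1, the sodium-glucose transporter, and Cdh17, a cadherin of intestinal epithelium, differed by 0.29 or less in size at each time they were measured.

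**Figure D4:**
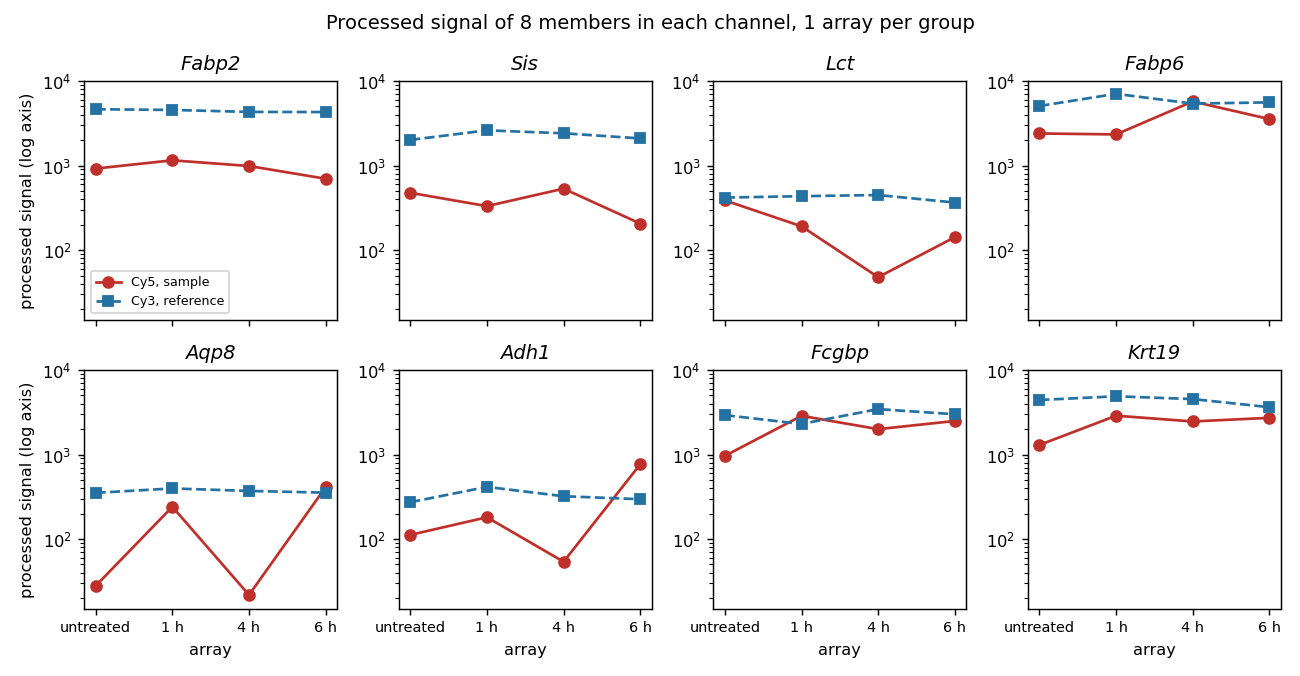
Scanner-processed signal (y axis, log scale) of 8 members by array, from untreated to 6 h (x axis), 1 array per group with no error bars: circles, Cy5 sample; squares, Cy3 reference. The reference of Aqp8 stays between 352 and 397 while its sample runs between 21.8 and 411, and Fabp2 and Sis lie below their reference on every array.

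The simple epithelial keratins, intermediate filament proteins of the gut lining, were all lowest relative to the reference in untreated cells. Krt19 had Cy5 signals of 1299, 2880, 2462 and 2718 in untreated, 1 h, 4 h and 6 h cells, against Cy3 signals of 4419, 4887, 4530 and 3633. Every sample with bacteria was thus above the untreated one and below its reference, and the differences were 0.95, 0.84 and 1.24. Krt18 had Cy5 signals of 341, 516, 497 and 626 and differences of 0.64, 0.46 and 0.87, and its partner Krt8 had Cy5 signals of 1062, 1437, 1066 and 1118 and differences of 0.70, 0.59 and 0.67. For Krt8 the Cy5 signal at 4 h was close to that of untreated cells, while the Cy3 signals were 1688, 1318, 1054 and 985. Krt20, a keratin of mature villus cells, lay at 24% to 38.4% of the reference, with Cy5 signals of 453, 655, 525 and 338 against Cy3 signals of 1892, 1708, 1554 and 1115. In Cy5 alone the 4 keratins were higher than in untreated cells at 1 and 4 h, and 3 of them at 6 h, Krt20 being at -0.28.

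The goblet cell genes all had a higher ratio with bacteria than without at every time measured. In the values used here they were most often highest at 1 h. With scaling between arrays every gene's difference stayed above 0, but the medians were 0.78, 1.03 and 1.12 at 1, 4 and 6 h. Fcgbp, the mucus protein that binds the Fc part of immunoglobulin G, had Cy5 signals of 964, 2869, 1997 and 2495 in untreated, 1 h, 4 h and 6 h cells, against Cy3 signals of 2925, 2300, 3446 and 2996. The untreated sample was the lowest, and the differences were 1.79, 0.68 and 1.17. Clca1, a secreted protease of mucus, had Cy5 signals of 654, 1730, 719 and 946 against Cy3 signals of 4176, 3496, 3476 and 2971. Only its 1 h sample stood well above the untreated one, and its differences were 1.61, 0.32 and 0.88. Spink4, a protease inhibitor made by goblet cells, had Cy5 signals of 520, 1059, 789 and 615 and differences of 1.08, 0.79 and 0.61. Agr2, the disulfide isomerase needed to fold mucin, had Cy5 signals of 565, 999, 622 and 692 and differences of 0.88, 0.41 and 0.90. Muc2, the mucin itself, had Cy5 signals of 465, 684, 573 and 470 and differences of 0.60, 0.28 and 0.49.

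For the trefoil peptide Tff3, which protects the mucosa, the sample signal was nearly flat. Its Cy5 signals were 523, 483, 552 and 484, while its Cy3 signals were 1386, 1120, 1000 and 806, in order of time. The differences of its ratio of 0.32, 0.42 and 0.55 thus came with -0.07, 0.09 and -0.02 in Cy5 alone. Zg16, a lectin that binds Gram-positive bacteria, had Cy5 signals of 2215, 3571 and 3670 in untreated, 1 h and 4 h cells, against Cy3 signals of 10442, 10236 and 9321. Its differences were 0.62 at 1 h and 0.89 at 4 h, and it lay at 21.2%, 34.9% and 39.4% of the reference. Over the goblet genes the median difference was 0.88, 0.42 and 0.74 for 7, 7 and 6 measured genes, and 0.79, 0.32 and 0.28 in Cy5 alone.

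The intestinal lectin and the caudal factors were also lowest in untreated cells and below the reference throughout. Lgals4, a galectin of the apical membrane, had 3 probes with a mean log2 ratio of -1.57, -1.11, -1.23 and -0.83. One probe varied least, with -0.97, -0.83, -1.06 and -0.73, while another had -1.88, -1.31, -1.35 and -0.92. Cdx1 had Cy5 signals of 210, 450, 524 and 614 in untreated, 1 h, 4 h and 6 h cells, against Cy3 signals of 862, 1015, 1025 and 1047. Each sample with bacteria stood above the untreated one, by 0.68, 0.72 and 0.78 in the ratio and 0.72, 1.01 and 1.18 in Cy5 alone. Cdx2 had Cy5 signals of 89.2, 144, 172 and 137 and Cy3 signals of 351, 326, 292 and 267, with differences of 0.52, 0.55 and 0.39. Sis and Lct, among the known targets of Cdx2, had differences of -0.45, -0.19 and -0.88 (Sis) and -0.45, -1.71 and -0.79 (Lct). Most brush border genes differed the other way: 7, 7 and 6 of 9 were above 0 at 1, 4 and 6 h. A link between the caudal factors and these genes was not tested. With each array centred on its median, the 1 h values were 0.28 for Sis and 0.02 for Lct, both under the 0.86 of the median gene, and scaling between arrays turned Sis to 0.50 at 4 h and 0.04 at 6 h.

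Grouped by course, after their values had been seen, several absorptive genes had their highest ratio at different times. Lct, Adh6a, Fabp1 and Apoa4 were highest in untreated or 1 h cells, Fabp6 at 4 h, and Aqp8, Adh1 and the more variable Car4 probe at 6 h. The genes nearest to Aqp8 and Adh1, the members with the widest ratio range (2.20 and 2.38), were sought among 9761 named genes by Euclidean distance over the 3 log2 differences from the untreated array. For Aqp8 they were Ly6c1 at 0.58, with differences of 0.85, -0.09 and 1.92, Ly6a at 0.61 and Klk1 at 0.77. For Adh1 they were Klk1b4 at 0.78, with differences of 0.27, -0.30 and 1.04, Sult1a1 at 0.97 and H2bc14 at 1.02.

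Lists of other cell types put these values beside the rest of the array. Of 40 further enterocyte genes, 39 were on the array and 34, 35 and 34 were measured at 1, 4 and 6 h. Of these, 1 was higher each time and 0 lower, with medians of 0.31, 0.26 and 0.21. Their mean ratio had a median of 71%, and 23 of 33 lay below the reference on all 4 arrays, among them Myo1a, a brush border myosin, with differences of 0.46, 0.42 and 0.43. The sugar transporter Slc2a5 had differences of 0.08, -0.24 and -0.37, and the anion exchanger Slc26a6 0.20, 0.08 and -0.31. Of 16 further goblet genes 9 were measured, and 0 passed the rule: Retnlb had 0.99, -0.06 and 0.06, Muc13 0.85, 0.86 and 0.75, and the goblet factor Spdef 0.28, 0.26 and 0.20. Of 13 Paneth cell genes 10 were on the array and all 10 were measured. At 1, 4 and 6 h, 6, 6 and 4 were higher, with medians of 1.70, 1.07 and 0.55. Of all measured genes 0.328%, 0.242% and 0.456% were higher. These lists were also chosen with earlier results known, so nothing is read from their shares. Lyz1 had 0.30, 0.00 and -0.27, Ang4 1.70, 1.09 and 0.48, and Mmp7 0.64, 0.62 and 1.20. Smooth muscle and stromal genes were measured for 7 of 12, with 0, 2 and 2 higher in the ratio and 0, 6 and 3 in Cy5 alone, and Acta2 had 0.44, 0.71 and 0.60, Cnn1 0.57, 0.98 and 0.85, and Tagln, 0.58 at 1 h, passed the rule at 4 h (1.08) and 6 h.

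Genes of stomach, liver, pancreas and kidney were detected in Cy5 in smaller shares than all genes, of which 11736 to 12096 of 20967 were detected over the 4 arrays. None of 8 gastric genes was well above background in Cy5 on any array, and 4 to 6 of 13 hepatocyte genes were, while Alb, Ttr, Ahsg, Fga, Fgb and Fgg were in neither channel on any array. In the hepatocyte list 4 genes were measured at each time, among them Apoa2, Serpina1a and Cps1, and none passed the rule. Of 11 pancreatic acinar genes on the array, 4 were well above background in Cy5 on every array. The 2 measured were Cela1, with differences of 0.10, -0.09 and 0.46, and Sycn, with 1.64, -0.69 and 2.38. Of 8 kidney genes 3, 2, 2 and 3 were well above background in Cy5 in untreated, 1 h, 4 h and 6 h cells. Only 1, 0 and 0 of the kidney genes were measured at 1, 4 and 6 h. Enteroendocrine and tuft cell genes were measured for 6 of 10 on the array, with Chga at 0.28, -0.14 and 0.15, Chgb at 0.05, -0.18 and 0.15, and Gcg at 0.12, 0.16 and 0.09. Lymphocyte genes were measured for 5, 4 and 4 of 11 on the array and none passed the rule, and the erythroid gene Hba-a1 differed by 0.12, 0.35 and 0.65. The macrophage genes had medians of 0.01, 0.07 and -0.09, with Adgre1 at -0.19, -0.17 and -0.24, Csf1r at 0.03, -0.07 and -0.08, and Itgam at 0.10, 0.08 and -0.10. The part of other cell types in the members' values was not tested.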

How the data were processed

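Images of the 2-colour Agilent arrays were read with version 10.5.1.1 of Agilent Feature Extraction, according to the labels' processing notes. For each spot the deposited files hold, per the file headers, median intensity values of spot and background, processed signals (the scanner software's values after background subtraction and dye normalization) and the log10 of Cy5 over Cy3. The authors' deposited series table repeats that log10 value. Further steps are not given in the sources used here. Median intensities, used where mean signals had been planned, were corrected by normexp (offset 50) and fitted by loess inside each array in limma 3.58.1 under R 4.3.3. Control and outlier spots had no weight in the loess, and nothing was done between arrays; Aquantile was added for single-channel values. The offset shrinks differences of dim probes. Control and outlier spots (1.55% to 1.84%) were left out, and 0 spots were saturated. Probes were named by RefSeq accession in tables of GRCm38.p6 (27649 of 39429 matched), and measured probes of a gene were averaged. Processed signals are quoted as levels of 1 probe on each array and are not compared between probes. With 1 array per group nothing was tested; the precision is limited by the number of arrays. The normalization was checked on simulated data. Members and lists were chosen with earlier results of these data known; every member is named, and of other lists the first 3 measured on all 4 arrays. The values of 1 gene are not reported here. Alternatives changed background correction, normalization, filters, probe rule, fold rule and channel. Tables were made with Python 3.11.15.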

Additional observations from a re-analysis of the deposited data

How the results depend on the processing

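Each count of members past the 2-fold rule and each median difference was recomputed under 12 alternatives and 1 chosen after the data were seen. The count of members 2-fold below the reference was recomputed likewise. Of these values 79 stayed close to those reported, 47 moved and 0 changed sign, which only the medians could do. Single members did change sign, as Sis at 4 h from -0.19 to 0.50 with scaling between arrays. Without background correction, 2 members were higher and 2 lower at 4 h with a median of 0.51, and 10 were higher at 6 h with a median of 0.67. An offset of 10 gave 4 lower at 4 h and 3 at 6 h. Centring each array on its median in place of loess gave 22 higher at 1 h with a median of 1.08, 2 lower at 4 h and at 6 h, and 0 members 2-fold below the reference; it shifted the median of all genes by 0.86 at 1 h. Relative to that shift (the alternative added), 1 was lower at 1 h with a median of 0.22, 2 were lower at 4 h, and 6 lay 2-fold below the reference. Scaling between arrays gave 2 lower at 1 h with a median of 0.20, 9 higher at 4 h with a median of 0.73, and 10 higher and 0 lower at 6 h with a median of 0.79. The processed signals and the deposited ratios gave, both alike, 3 lower at 1 h, 7 higher and 4 lower at 4 h with a median of 0.50, and 11 higher and 4 lower at 6 h with a median of 0.67. Without a filter on dim probes 2 were lower at 4 h. A 1.5-fold rule gave 14 higher at 1 h, 9 higher and 4 lower at 4 h, 14 higher and 4 lower at 6 h, and 12 members below the reference on all 4 arrays by that fold. Cy5 alone gave medians of 0.23, 0.18 and 0.06, and 2 higher at 4 h. The cause of these moves was not tested. Shares of all genes past the rule are given here only for the values reported and for Cy5 alone. Nothing about the members is read from the other counts. No paired analysis was possible because each group had 1 array and the labels carry no replicate numbers. Dim members, such as Mttp, Cdh17 and the second Aqp8 probe, are limited by signal over background.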

Other observations

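Outside the members, 12 measured genes had a mean ratio under 50% of the reference. They were chosen after their values were seen. Among them were Defa36 (41.1%) and Defa2 (47.3%), defensins of Paneth cells, Mptx1 (46.8%), a pentraxin, Plac8 (41.9%), Perp (44.6%), Tmigd1 (44.9%), Ugt2b34 (45.6%), a glucuronosyltransferase, Gpx2 (45.8%), the glutathione peroxidase of gut epithelium, Selenop (47.1%), and Gzma (49.2%), a granzyme of cytotoxic lymphocytes. Muc13 was also among them, at the edge of the limit. Past the 2-fold rule among the further enterocyte genes were Tspan1, by 1.43 at 1 h and 2.19 at 6 h, and Naaladl1, by 1.21 at 4 h.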
